A study of Caenorhabditis elegans with 68 samples.

Results

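The genes described here are 7 genes of heme transport and delivery in the nematode Caenorhabditis elegans, hrg-1, hrg-2, hrg-3, hrg-4, hrg-5, hrg-6 and mrp-5, chosen by name from the 30467 genes of the deposited expression table. Their transcripts were measured by RNA sequencing in whole, freshly hatched first-stage (L1) larvae whose mothers had been kept at 50 or at 300 mM NaCl. The 48 libraries used fell into 14 groups, one for each of 7 strain labels at each salt level, and the study asked how the microRNA gene mir-85, and its site in hrg-1, bear on progeny of salt-exposed mothers. All levels are TPM, a length-normalised share of the transcripts of a library, given as each library's value or as mean ± SD over libraries.

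Wild type larvae of strain N2 appear under a pair of labels, because the titles place them in separate experiments. They are called WT where they accompany the mir-85(n4117) strain MT12999 (2 libraries per group) and N2 where they accompany hrg-1(gcp100) (5 libraries per group). The label n4117 stands for homozygous MT12999. F1het and F1KO are larvae of strain MHE324 whose mothers were heterozygous (3 libraries per group). F1het larvae carried n4117 over the balancer mIn1, which itself holds mIs14 and dpy-10(e128), and F1KO larvae were homozygous for n4117, so no wild type mother stands beside them. The label gcp109 is MHE339, in which the 3p sequence of mir-85 is deleted (4 libraries per group), and its experiment holds no wild type. The label gcp100 is MHE310, in which the seed match of mir-85 in hrg-1 is mutated. Replicates are titled as biological, but no separate cultures are named, so p-values describe the spread between these samples, which may be technical.

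Caenorhabditis elegans cannot make heme and takes it from its food. HRG-4 brings heme into intestinal cells at the plasma membrane, HRG-1 moves it out of endosomes and lysosomes, and HRG-5 and HRG-6 are their paralogs. MRP-5, an ABC transporter, exports heme from the intestine to other tissues, and HRG-3 is a small secreted chaperone that carries maternal heme to the progeny. HRG-2 is a membrane protein of the hypodermis. Transcripts of hrg-1, hrg-2, hrg-3 and hrg-4 are known to rise when worms are grown with little heme.

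Several libraries of the 300 mM groups stood apart. Summed TPM of sperm transcripts, which L1 larvae should hardly contain, lay between 37.9 and 5343 in 9 of them and between 3.5 and 34.9 in all others. In 5 libraries (N2 at 300 mM replicates 3 and 5, gcp100 at 300 mM replicates 1, 3 and 5) the median correlation with the other libraries of the group was below 0.9, down to 0.829. A sum of 12 germline, oocyte and yolk protein transcripts, among them those of 6 vitellogenins, was 9269 TPM in N2 replicate 3, 11064 in gcp100 replicate 1 and 3851 in gcp100 replicate 5, against 3.84 to 507 TPM in all other libraries. Of the gcp100 libraries at 300 mM, replicate 1 held the highest hrg-1 and hrg-3 values and replicate 5 the highest hrg-6 value. The part of these transcripts in the values was not tested. N2 replicate 5 and gcp100 replicate 3 at 300 mM were also the 2 libraries in which hrg-2, hrg-3, hrg-4, hrg-5 and hrg-6 were all listed at 0. They were among the 3 libraries with the fewest genes of at least 1 TPM (12078 and 10487, against a median of 14078 in the libraries that did not stand apart). Depth is not kept by TPM, so an entry of 0 here cannot be separated from a gene too low to be sampled.

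By mean level over the 48 libraries, mrp-5 was highest at 36.01 TPM and hrg-1 followed at 27.2. The others were far lower, with hrg-2 at 4.37, hrg-3 at 2.02, hrg-6 at 1.79, hrg-4 at 1.02 and hrg-5 at 0.349 TPM. Only hrg-1 and mrp-5 were above 0 in every library. The filter of at least 1 TPM in as many libraries as the smallest group was passed by 6 of the 7 members in 3 of the 4 experiments and by 5 in the gcp109 experiment, where hrg-4 failed. The paralog hrg-5, which reached 1.29 TPM at most and was listed at 0 in 9 libraries, passed in none, so it was not tested. Positions below are those of the WBcel235 annotation.

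The lysosomal heme transporter gene hrg-1 (WBGene00019830, chromosome X, 4008057 to 4016221, minus strand, 4 exons at most, coding length 582 bases) is the gene whose site is mutated in gcp100. Its annotated 3′ untranslated region covers 178 bases at 4008057 to 4008234. In larvae of mothers at 50 and at 300 mM its libraries read 7.81 and 7.49 against 11.8 and 13.4 TPM in WT. In n4117 they read 16.8 and 12.8 against 124 and 36.03 TPM. Every 300 mM library of both strains lay above their 50 mM libraries, and the 2 n4117 libraries at 300 mM were far from each other.

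The same separation was present in the progeny of heterozygous mothers. In F1het the hrg-1 values were 13.1, 13.8 and 17.8 TPM at 50 mM and 48.7, 26.7 and 41.97 TPM at 300 mM. In F1KO they were 11.5, 13.4 and 22.2 TPM against 40.01, 52.1 and 44.9 TPM. In gcp109 they were 16.1, 17.01, 18.4 and 28.5 TPM against 48.3, 34.7, 79.9 and 48.5 TPM. In each of these strains all 300 mM libraries exceeded all 50 mM libraries.

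The N2 libraries were the exception. Their hrg-1 values at 50 mM were 16.04, 25.5, 32.7, 18.8 and 8.01 TPM and at 300 mM 13.05, 27.1, 11.8, 23.7 and 14.2 TPM, so the groups overlapped almost wholly. At 300 mM the lowest hrg-1 values were those of replicates 1, 3 and 5, which were rich in sperm transcripts (255, 5343 and 453 TPM). Replicates 2 and 4 held 32.4 and 34.9 TPM of sperm transcripts. Without the libraries rich in sperm transcripts the N2 difference was positive, as given at the end. In gcp100 of the same experiment the values were 16.7, 22.4, 17.3, 11.4 and 8.72 TPM at 50 mM and 54.3, 30.1, 28.9, 27.97 and 27.8 TPM at 300 mM, without overlap. One gcp100 library at 300 mM, replicate 1, stood clear of the other 4. Every gcp100 library at 300 mM except replicate 4 was also rich in sperm transcripts. The part of these transcripts in the hrg-1 values of either strain was not tested.

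The salt groups of hrg-1 thus did not overlap in 6 of 7 strains, always with 300 mM higher. Among all genes tested, the share without overlap and higher at 300 mM was 27.4% in WT and 32.9% in n4117, so separation there was common. It was 5.94% in F1het, 11.2% in F1KO, 5.28% in gcp109, 1.92% in gcp100 and 5.16% in N2. The same shares apply to the other genes described below as separate and higher at 300 mM. On the log2(TPM + 1) scale the difference of hrg-1 was 0.65 (SE 0.499) in WT, 2.12 (SE 0.499) in n4117, 1.30 (SE 0.256) in F1het, 1.52 (SE 0.256) in F1KO, 1.33 (SE 0.264) in gcp109, 1.11 (SE 0.338) in gcp100 and -0.10 (SE 0.338) in N2. With limma and adjustment over all genes tested, none passed the threshold of 0.05. The adjusted p was 0.0536 in gcp109, 0.0827 in F1KO, 0.146 in F1het, 0.162 in gcp100, 0.228 in n4117, 0.747 in WT and 0.873 in N2. The replicate numbers paired the gcp109 libraries, and with the number as a block the gcp109 rise passed (adjusted p = 0.0126). Leaving out 1 library made the rise pass in 1 of 6 fits in F1het (without replicate 2 at 300 mM). It also passed in 1 of 6 in F1KO (without replicate 3 at 50 mM) and 1 of 8 in gcp109 (without replicate 4 at 50 mM). The limma adjusted p was 0.0226 to 0.0379 in these fits. Other omissions raised it to 0.536 in F1het, 0.304 in F1KO and 0.17 in gcp109. In n4117 each omission leaves 1 library in a group, and the difference ran from 1.24 to 2.999. Permuting the gcp100 libraries exactly for this gene, two-sided, gave p = 0.00794, the smallest that 5 against 5 libraries allow. After adjustment over the 15 comparisons of this gene it was 0.0397. This adjustment does not cover the other genes permuted, and the members were chosen with earlier results of these data known. The same permutation test gave an adjusted p of 0.107 in gcp109, 0.25 in F1het and F1KO, 0.5 in WT and n4117 and 0.876 in N2. Except in N2, the unadjusted p was the smallest that the group sizes allow. In whole larvae, a change in the number of cells of a type and a change in RNA per cell cannot be told apart.

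**Figure D1:**
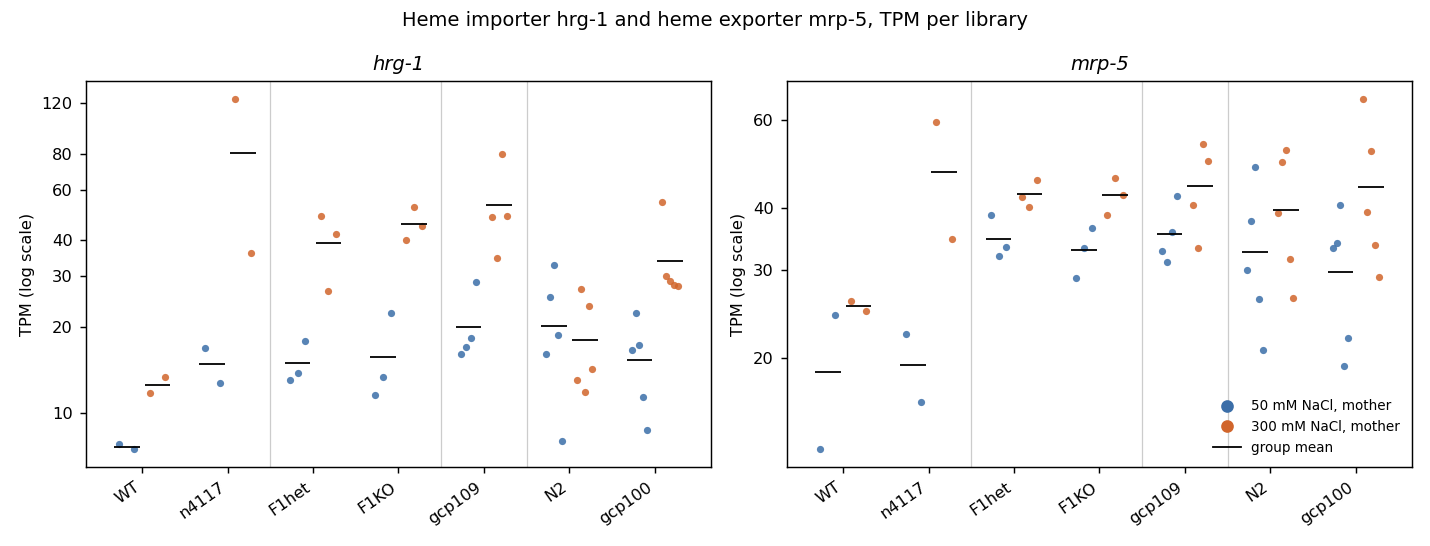
TPM of hrg-1 and of mrp-5 in each of 48 libraries (points, log axis) by strain, with larvae of mothers at 50 mM NaCl in blue and at 300 mM in orange, and the group mean as a black line. The 300 mM points of hrg-1 lie above the 50 mM points in every strain except N2, whereas for mrp-5 the groups are separate in WT, n4117, F1het and F1KO.

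Marker transcripts of the intestine, where hrg-1 acts, were summed beside it. Of 11 intestine markers, 10 were above 0 in every library, and the exception, mtl-2, was listed at 0 in 2 libraries. Their summed level overlapped between the salt groups in 6 of 7 strains. In F1het it was lower at 300 mM, at 2802 to 3482 TPM, than at 50 mM, at 3893 to 4528 TPM, while hrg-1 was higher. In gcp109 the sums were 4795 to 7652 TPM at 50 mM and 5045 to 7959 TPM at 300 mM, and in gcp100 they were 2484 to 7610 and 4255 to 6761 TPM. Sums of other markers did separate the salt groups in some strains. At 300 mM pharynx markers were lower in WT and n4117, body wall muscle markers higher in n4117 and F1KO, and germline, oocyte and yolk markers higher in WT and F1het. Sperm markers were higher in WT, n4117, N2 and gcp100 and lower in F1het, and neuron markers overlapped in all 7 strains. The part of these differences in the hrg-1 values was not tested.

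Across the 14 groups the order of mean hrg-1 ran from n4117 at 300 mM (80.2 ± 62.4 TPM) through gcp109 (52.9 ± 19.2), F1KO (45.7 ± 6.06), F1het (39.1 ± 11.3) and gcp100 (33.8 ± 11.5), all at 300 mM, to WT at 50 mM (7.65 ± 0.226). Of the 13 pairs of neighbours in that order, 12 overlapped in their library values, and the single gap lay between WT at 300 mM and WT at 50 mM. Groups farther apart in the order did separate at 300 mM, with N2 (11.8 to 27.1 TPM) below gcp100, gcp109 and F1KO, and WT below n4117. The gene mop-25.1 overlaps the span of hrg-1 on the opposite strand without overlapping its exons, and at 105 TPM on average it is much more abundant. Its mean was lower at 300 mM in all strains but n4117, where the means of both genes were higher. In N2, where the mean of hrg-1 was also lower, the fall of mop-25.1 passed the test (log2 -0.63, SE 0.162, adjusted p = 0.0313 with limma). The use of strand in the authors' counting is not given in the sources used here.

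The paralogs hrg-5, hrg-4 and hrg-6 lie together within 5311 bases of chromosome IV. The genes hrg-5 (WBGene00009494, 11028289 to 11029428) and hrg-4 (WBGene00009493, 11030143 to 11030993) are on the minus strand and hrg-6 (WBGene00009495, 11032588 to 11033599) is on the plus strand. The gaps between them are 714 and 1594 bases.

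For hrg-4, the importer of the intestinal plasma membrane, the mean was higher at 300 mM in 6 of 7 strains, but the groups separated only in n4117 (0.88 and 0.59 against 4.19 and 1.02 TPM) and in F1KO (1.42, 0.96 and 0.94 against 1.44, 2.14 and 1.83 TPM). The separation in F1KO rests on a gap of a few hundredths of a TPM. In no strain did hrg-4 pass the test. The log2 differences were 0.91 (SE 0.508) in n4117, 0.41 (SE 0.24) in F1KO, 0.26 (SE 0.415) in N2, 0.21 (SE 0.508) in WT, 0.00 (SE 0.415) in gcp100 and -0.06 (SE 0.24) in F1het. In gcp109, where the gene was not tested, its values were 0.89, 0.83, 0.16 and 0.6 TPM against 1.35, 1.45, 1.75 and 0.28 TPM.

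For hrg-6 the direction differed between strains. In WT the libraries read 1.62 and 1.01 TPM at 50 mM against 2.23 and 1.98 TPM at 300 mM, and in n4117 they read 1.08 and 0.4 against 3.47 and 4.44 TPM. In F1het the order was the opposite, with 2.13, 1.59 and 1.29 TPM at 50 mM above 0.67, 0.24 and 0.25 TPM at 300 mM. Of all genes tested in F1het, 7.86% were without overlap and lower at 300 mM. The log2 difference was 0.44 (SE 0.327) in WT, 1.53 (SE 0.327) in n4117 and -0.95 (SE 0.306) in F1het, and none passed the test (adjusted p = 0.739, 0.217 and 0.301). In the other 4 strains the hrg-6 groups overlapped, and gcp100 at 300 mM held 1 library, replicate 5, at 13.9 TPM beside 4 libraries at 0 to 3.14 TPM. The untested hrg-5 overlapped between the salt groups in all 7 strains, with a higher mean at 300 mM in 2 of them.

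The intestinal heme exporter gene mrp-5 (WBGene00003411, chromosome X, 14938502 to 14946317, minus strand, 20 exons, coding length 4281 bases) was the most evenly expressed member, between 13.1 and 66.2 TPM. Its mean was higher at 300 mM in all 7 strains, and by far less than that of hrg-1 in most. In F1het the libraries read 38.6, 31.96 and 33.4 TPM against 42.1, 40.1 and 45.4 TPM. In F1KO they read 28.98, 33.2 and 36.4 TPM against 38.8, 45.8 and 42.5 TPM. The groups separated in these strains and in WT (13.1 and 24.4 against 26.04 and 24.8 TPM) and n4117 (22.3 and 16.4 against 59.5 and 34.7 TPM). They overlapped in gcp109, N2 and gcp100. Of all genes tested, 27.4% were higher without overlap in WT, 32.9% in n4117, 11.2% in F1KO and 5.94% in F1het.

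No salt difference of mrp-5 passed the test, with adjusted p from 0.309 in n4117 to 0.737 in WT. The log2 difference was 1.21 (SE 0.359) in n4117, 0.54 (SE 0.276) in gcp100, 0.48 (SE 0.359) in WT, 0.36 (SE 0.115) in F1KO, 0.30 (SE 0.169) in gcp109 and 0.29 in both F1het (SE 0.115) and N2 (SE 0.276). Over the 48 libraries, with the mean of each experiment removed, log2(TPM + 1) of mrp-5 correlated at r = 0.66 with the summed intestine markers, against 0.38 for hrg-1 and 0.126 for hrg-3. These correlations are descriptions. The libraries share their strains, salt groups and preparation, and the part of intestinal content in the mrp-5 differences was not tested.

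The secreted heme chaperone gene hrg-3 (WBGene00010256, chromosome V, 9756468 to 9757019, plus strand, 3 exons, coding length 210 bases) was the only member with a salt response that passed without the replicate block. It was low at 50 mM, with group means of 0.225 to 1.01 TPM, and its mean was higher at 300 mM in all 7 strains. In gcp109 the libraries read 0.12, 0.36, 0.26 and 0.41 TPM at 50 mM and 7.83, 4.38, 2.58 and 3.54 TPM at 300 mM. No 50 mM library reached the lowest 300 mM library. This rise passed the test (log2 2.04, SE 0.281, adjusted p = 0.0112 with limma, higher in 4 of 4 libraries), where 0.659% of the genes tested passed in that direction. The gene met the filter of that fit through its 300 mM libraries alone, as all 50 mM values lay below 1 TPM. The rise also passed in the fit without the filter. Exact permutation gave p = 0.0286, the smallest that 4 against 4 libraries allow. Adjusted over the 15 comparisons of this gene it was 0.238.

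In the other strains the mean of hrg-3 was also higher at 300 mM, without passing. The n4117 libraries read 0.2 and 0.52 TPM against 13.6 and 5.37 TPM, and the F1KO libraries 1.49, 0.72 and 0.81 TPM against 4.23, 3.61 and 2.35 TPM. Groups separated in these strains and in WT, whose libraries read 0.21 and 0.24 TPM against 0.44 and 1.67 TPM. In F1het they overlapped (0.38, 0.29 and 0.51 TPM against 3.81, 0.1 and 0.86 TPM), as 1 of the 3 larval samples of salt-exposed mothers lay below all samples at 50 mM.

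In gcp100 the hrg-3 values were 0.62, 0.54, 0.38, 0.61 and 0.75 TPM at 50 mM and 10.07, 2.21, 0, 5.35 and 7.44 TPM at 300 mM. In N2 they were 0.2, 0, 1.21, 0.18 and 0 TPM and 0, 2.6, 1.41, 2.53 and 0 TPM. The only gcp100 library at 300 mM that did not exceed the 50 mM range was replicate 3, one of those in which 5 members were listed at 0. The log2 difference was 2.84 (SE 0.485) in n4117, 1.52 (SE 0.53) in gcp100, 1.13 (SE 0.433) in F1KO, 0.68 (SE 0.485) in WT, 0.66 (SE 0.53) in N2 and 0.62 (SE 0.433) in F1het, with adjusted p from 0.186 in n4117 to 0.725 in WT. Without the 3 libraries of lowest correlation with all others (N2 replicates 3 and 5 and gcp100 replicate 3, all at 300 mM), the gcp100 value was 2.07 and passed (adjusted p = 0.0161), and it also passed without gcp100 replicate 3 alone (adjusted p = 0.0471). Without the libraries rich in sperm transcripts the N2 value was 1.505. At 300 mM that fit keeps N2 replicates 2 and 4, the highest at 2.6 and 2.53 TPM, and 1 gcp100 library. The pseudocount understates these differences, as most 50 mM values lie below it. The gene F58E6.11 on the opposite strand shares exon sequence with the 3′ end of hrg-3. Its mean was lower at 300 mM in 6 of 7 strains, and in gcp109 it was 12.1 ± 1.15 against 13.2 ± 3.07 TPM.

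The hypodermal gene hrg-2 (WBGene00010473, chromosome V, 12409415 to 12410513, minus strand) showed no shared direction. Its groups separated only in F1het, at 2.12, 2.91 and 2.55 TPM against 4.39, 3.26 and 3.8 TPM. In N2 its mean was lower at 300 mM, with 5.55, 4.7, 8.02, 7.7 and 4.58 TPM against 1.28, 3.5, 1.47, 7.23 and 0 TPM (log2 -1.26, SE 0.561, adjusted p = 0.177). In gcp100 the log2 difference was -0.65 (SE 0.561), and in the other 5 strains it lay between 0.08 and 0.65. Of 8 hypodermis markers 3 were above 0 in every library, and rol-6 was listed at 0 in 23 libraries. Summed hypodermis markers overlapped between the salt groups in 5 of 7 strains, F1het and N2 among them.

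**Figure D2:**
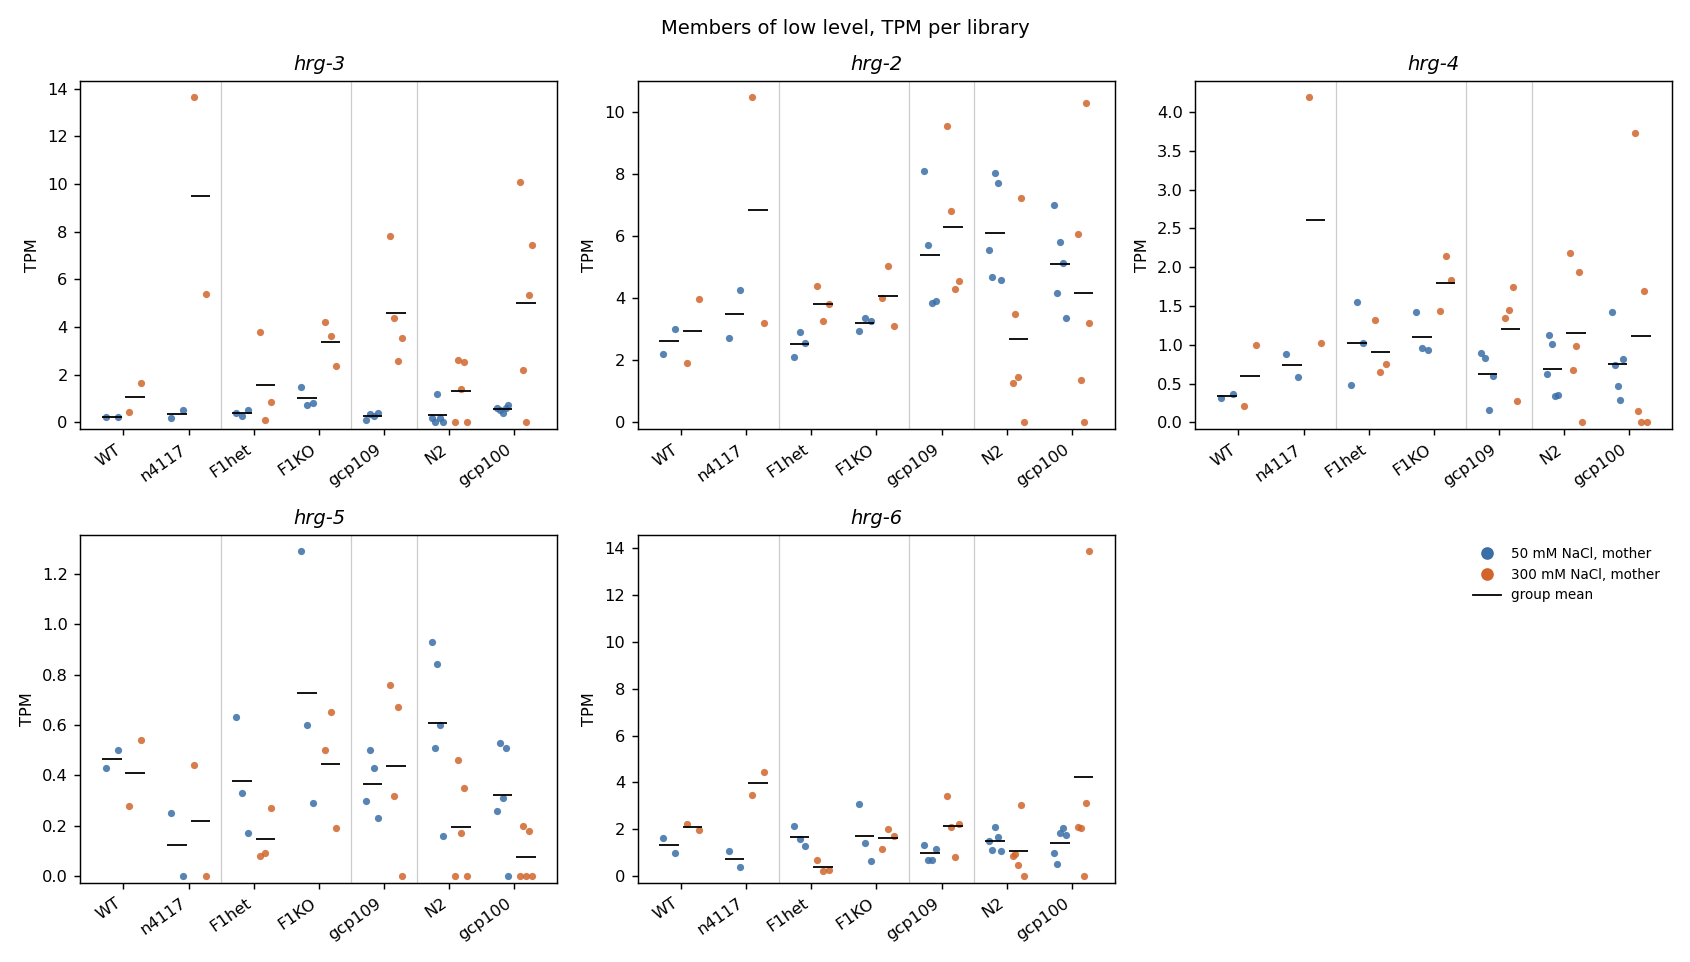
TPM of hrg-3, hrg-2, hrg-4, hrg-5 and hrg-6 in each of 48 libraries (points) by strain, with 50 mM in blue, 300 mM in orange and the group mean as a black line; each panel has its own linear axis. No 50 mM value of hrg-3 exceeds 1.49 TPM, and its 300 mM values reach 13.6 TPM but also lie at or near 0 in F1het, N2 and gcp100, while the other 4 genes mix the salt groups in most strains.

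Counted over the members, limma called 1 of 5 tested in gcp109, hrg-3, and none of 6 in each of the other 6 strains. With the replicate block, which the pairing of the gcp109 libraries allows, it called 2 of 5 there, hrg-1 and hrg-3, both higher, beside 6.19% of all genes tested. At an unadjusted p under 0.05 the members called were 0 in WT, 4 in n4117, 4 in F1het, 3 in F1KO, 2 in gcp109, 1 in N2 and 2 in gcp100. The share of all genes tested at that level was 9.31%, 12.2%, 11.4%, 11.8%, 14.9%, 24.4% and 13.1% in the same order, so the single member in N2 lies below its background. With adjustment, the share of all genes tested that were called in either direction was 0% in WT, 0.0468% in n4117, 0.00647% in F1het, 0.0259% in F1KO, 4.3% in N2 and 0.622% in gcp100. In gcp109, 0.659% of all genes tested were called higher.

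**Figure D3:**
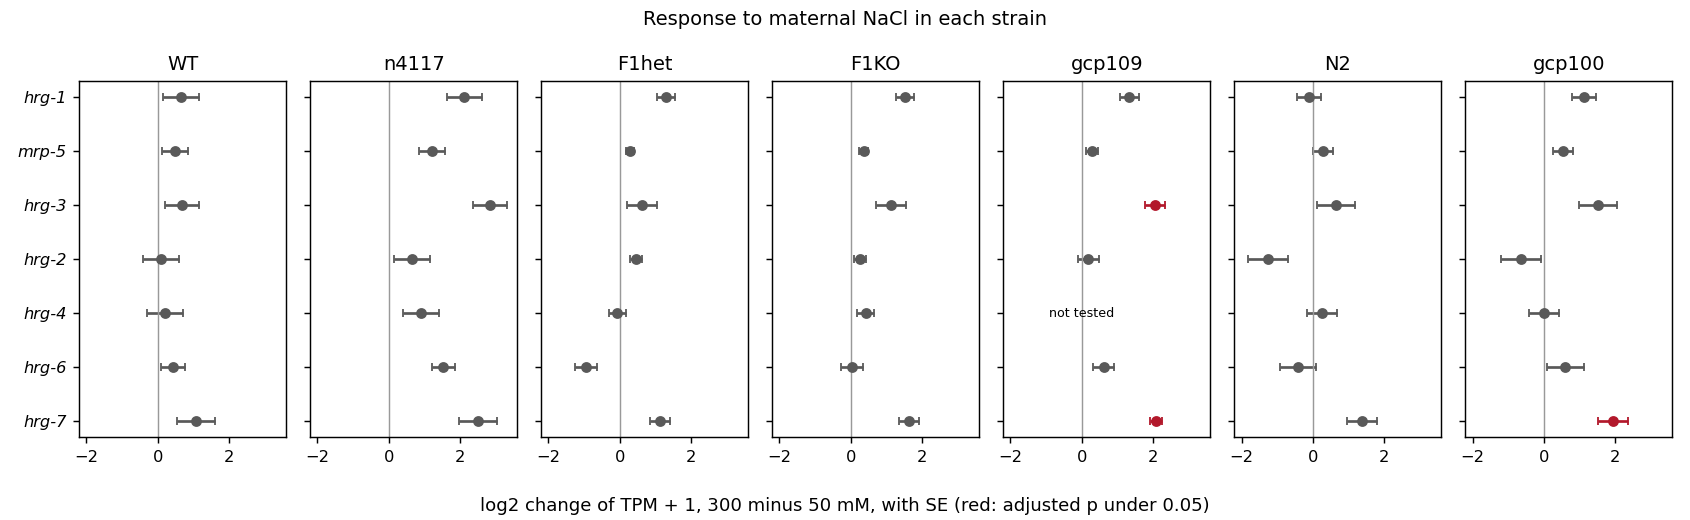
Difference of mean log2(TPM + 1), 300 minus 50 mM, with its standard error from limma, for 6 members and for hrg-7, in each strain; red marks an adjusted p under 0.05. Differences of hrg-1, hrg-3 and hrg-7 lie right of 0 in all strains except hrg-1 in N2, and the red points are hrg-3 in gcp109 and hrg-7 in gcp109 and gcp100.

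Between genotypes at 300 mM, hrg-1 was the only member that passed in any of the 4 comparisons, and it did so in 1. Its level in gcp109 exceeded that in N2 (34.7 to 79.9 against 11.8 to 27.1 TPM; log2 1.52, SE 0.338, adjusted p = 0.019 with limma), where 1.11% of the genes tested passed in that direction and 3.68% were higher without overlap. The overlapping gene mop-25.1 passed in the same direction (log2 0.63, SE 0.156, adjusted p = 0.0379). Without passing, hrg-3 (log2 1.41) and hrg-2 (log2 1.27) were also higher, and 53 of 56 heme protein genes had positive differences, with a median of 0.58 beside 0.156 over all genes tested. These strains come from separate experiments, so genotype and experiment cannot be told apart. This call was lost without the 3 libraries of lowest correlation (log2 1.27, adjusted p = 0.193), without those that stood apart in their groups (log2 1.27, adjusted p = 0.112), without the libraries rich in sperm transcripts (log2 0.99, adjusted p = 0.551), and on leaving out any one of gcp109 replicates 1 and 3 or N2 replicates 3 and 5 (adjusted p = 0.0508 to 0.122).

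Within one experiment, hrg-1 at 300 mM was higher in gcp100, with the mutated site, than in N2 (27.8 to 54.3 against 11.8 to 27.1 TPM), without overlap. That pattern was shared by 0.0786% of the genes tested, 12 of 15275, and at 50 mM hrg-1 overlapped between these strains. The log2 difference of 0.90 (SE 0.338) did not pass across all genes (adjusted p = 0.777), and limma called 0% of the genes there, with 880 at an unadjusted p under 0.05. For this gene by itself, exact permutation of the libraries gave p = 0.00794, the smallest possible, and 0.0397 adjusted over its 15 comparisons. That adjustment leaves out the other genes permuted, and the members were chosen with earlier results of these data known. Without the 5 libraries that stood apart in their groups the log2 difference was 0.49. It was 0.14 without the libraries rich in sperm transcripts, which leave 1 gcp100 and 2 N2 libraries at 300 mM. No other member separated gcp100 from N2 at either salt level, although the log2 difference of hrg-3 at 300 mM was larger than that of hrg-1, at 1.19 (SE 0.53, adjusted p = 0.777).

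The n4117 larvae had higher hrg-1 than WT at both salt levels without overlap (log2 0.86, SE 0.499, at 50 mM and 2.33, SE 0.499, at 300 mM), as did 6.25% of the genes tested at 50 mM. At 50 mM hrg-4 was also higher without overlap (0.59 to 0.88 against 0.32 to 0.37 TPM). The untested hrg-5 was lower without overlap there (0 to 0.25 against 0.43 to 0.5 TPM). At 300 mM, 5 of the 7 members were higher in n4117 without overlap, against 16.4% of all genes tested, and the other two, hrg-2 and hrg-5, overlapped. None passed (adjusted p = 1; 0.02% of genes passed in either direction), and with 2 libraries per group the smallest possible permutation p is 0.333. Without n4117 replicate 2 at 300 mM, which leaves 1 library in that group, the hrg-1 difference was 3.21. Leaving out each library in turn gave 1.45 to 3.21. For hrg-3 the log2 difference at 300 mM was 2.30 (SE 0.485).

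In F1KO against F1het, which differ in the larva but share heterozygous mothers, hrg-1 overlapped at both salt levels, and its log2 difference was 0.25 (SE 0.256) at 300 mM. At 50 mM hrg-2 (2.96 to 3.38 against 2.12 to 2.91 TPM) and hrg-3 (0.72 to 1.49 against 0.29 to 0.51 TPM) were higher in F1KO without overlap, as were 2.85% of the genes tested, and neither passed (adjusted p = 1). At 300 mM hrg-4 (1.44 to 2.14 against 0.65 to 1.32 TPM) and hrg-6 (1.16 to 2 against 0.24 to 0.67 TPM) were higher in F1KO without overlap, as were 9.55% of the genes tested. For hrg-6 the log2 difference was 0.92 (SE 0.306), which did not pass (adjusted p = 0.691; 0.0194% of genes passed in either direction).

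The salt response itself was compared between genotypes as an interaction. For hrg-1 the interaction on the log2 scale was 1.47 (SE 0.706) for n4117 against WT, 0.22 (SE 0.362) for F1KO against F1het, 1.21 (SE 0.478) for gcp100 against N2 and 1.43 (SE 0.477) for gcp109 against N2. For hrg-3 these were 2.16 (SE 0.686), 0.50 (SE 0.612), 0.87 (SE 0.749) and 1.38 (SE 0.714). All were positive and none passed (adjusted p of at least 0.873). With limma 0% of the genes passed in each of the 4 interactions. At an unadjusted p under 0.05 there were 174, 369, 187 and 519 genes, among them 2, 1, 1 and 1 members. A larger response in the mutants was therefore not resolved from the spread. The last 2 interactions share the N2 libraries.

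Beyond the members, a list of 6 further heme handling genes was tested in full. One of them, hrg-7, which encodes a secreted aspartic protease homolog that signals heme status between tissues, was higher at 300 mM without overlap in 6 of 7 strains. Of all genes tested, 27.4% were so in WT, 32.9% in n4117 and 1.92% to 11.2% in F1het, F1KO, gcp109 and gcp100. In gcp109 hrg-7 went from 16 to 26.2 TPM at 50 mM to 74.8 to 108 TPM at 300 mM (log2 2.09, SE 0.17, adjusted p = 0.00148 with limma). By exact permutation its adjusted p was 0.119 in gcp109, gcp100 and N2. In gcp100 it went from 8.24 to 31.3 TPM to 34.8 to 109 TPM (log2 1.93, SE 0.427, adjusted p = 0.041). The gcp100 call was lost when any one gcp100 library other than replicate 3 was left out, with adjusted p of 0.0574 to 0.137, without the libraries rich in sperm transcripts (adjusted p = 0.333), without those that stood apart (0.129), with a pseudocount of 0.1 (0.0519) and without the filter (0.0721).

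In N2 the hrg-7 groups overlapped, at 10.1 to 50.9 against 24.1 to 80.8 TPM, with a log2 difference of 1.37 (SE 0.427, adjusted p = 0.0713). In the same libraries the log2 difference of hrg-1 was -0.10. The log2 difference of hrg-7 was 2.51 (SE 0.526) in n4117, 1.62 (SE 0.278) in F1KO, 1.13 (SE 0.278) in F1het and 1.08 (SE 0.526) in WT, none of which passed. It passed in F1KO without replicate 3 at 50 mM (adjusted p = 0.016) and in N2 without replicate 3 at 50 or at 300 mM (0.0337 and 0.0373).

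The other two hrg genes of the list, named here after their values were seen, lay the other way. The genes hrg-9 and hrg-10 encode relatives of TANGO2, a protein involved in moving heme out of organelles. Group ranges of hrg-9 were lower at 300 mM without overlap in WT, F1KO and gcp109, where it was 10.4 to 11.9 against 5.66 to 9.46 TPM. Those of hrg-10 were lower in WT (10.8 and 11.6 against 4.78 and 5.1 TPM) and n4117. Of all genes tested, 13.3% were lower without overlap in WT, 11.4% in n4117, 8.21% in F1KO and 4.18% in gcp109. Neither gene passed in any strain. The remaining 3 genes, cchl-1, cox-10 and cox-15, which attach or modify heme for the respiratory chain, had log2 differences between -0.36 and 0.27 in all strains.

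**Figure D4:**
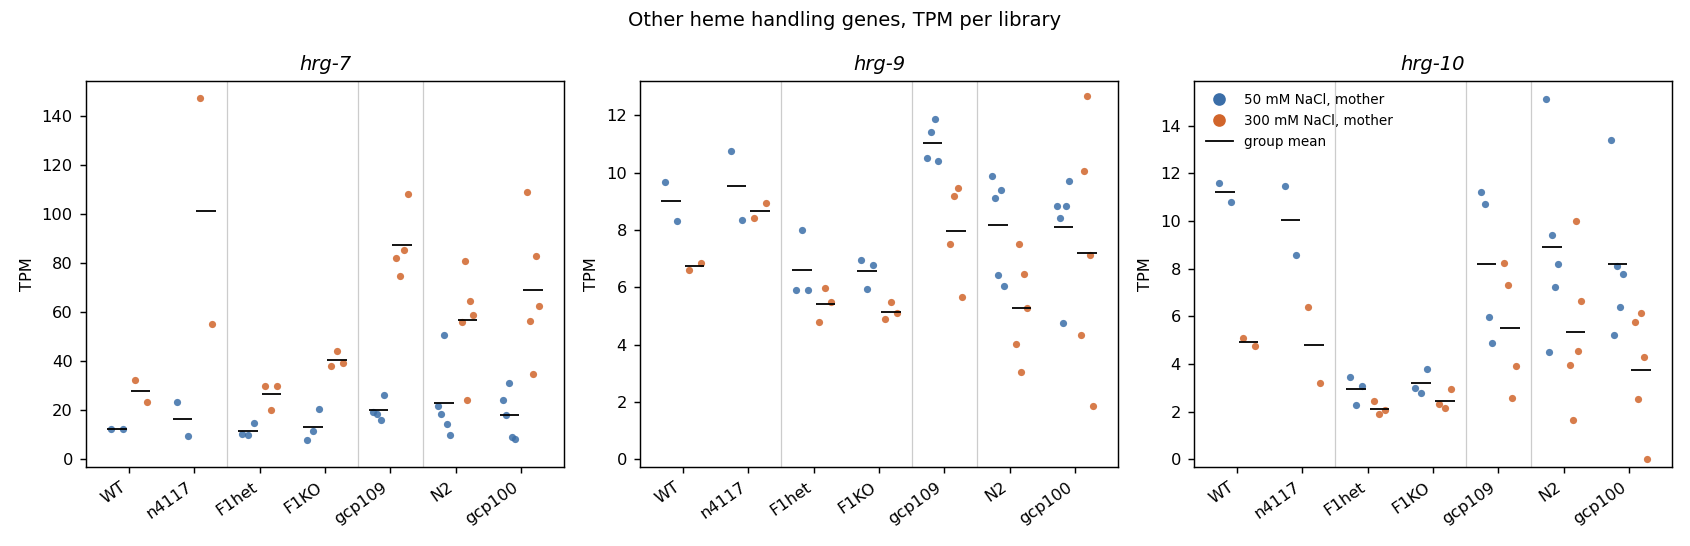
TPM of hrg-7, hrg-9 and hrg-10 in each of 48 libraries (points) by strain, with 50 mM in blue, 300 mM in orange and the group mean as a black line, on linear axes. For hrg-7 the 300 mM points lie above the 50 mM points in every strain except N2, and for hrg-9 and hrg-10 the means at 300 mM are lower in all strains.

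Over the whole heme handling list, limma called 1 of 6 higher in gcp109 and in gcp100, hrg-7 in each, and none in the other strains. Of all genes tested, 0.659% were called higher in gcp109, and 0.622% were called in either direction in gcp100. The median log2 difference of the list was -0.14 in gcp109 and -0.17 in gcp100, beside -0.02 and -0.15 over all genes tested. With the replicate block hrg-7 remained called in gcp109 (adjusted p = 0.000237).

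Proteins that bind heme, a list of 57 genes with cytochromes, catalases, peroxidases, guanylate cyclases and globins, were tested as a second list. Between 54 and 55 of them passed the filter. None passed in 6 of 7 strains. In N2 the list median was -0.75 beside -0.16 over all genes tested. Summed neuron markers in N2 were 1739 to 2137 TPM at 50 mM and 416 to 1891 TPM at 300 mM. The part of tissue content in the list median was not tested. Where 4.3% of all genes tested passed there, 2 of 55 heme protein genes did, both lower, a count near its background. These were the cytochrome b5 gene cytb-5.2, from 405 to 547 TPM at 50 mM to 219 to 347 TPM at 300 mM (log2 -0.77, SE 0.155, adjusted p = 0.00798), and the globin gene glb-14, from 12.1 to 18.3 to 1.39 to 8.59 TPM (log2 -1.38, SE 0.335, adjusted p = 0.0252). Without the 5 libraries that stood apart 5 genes of both lists passed in N2, and without those rich in sperm transcripts 1 did.

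With the replicate block, 8 of 55 heme protein genes tested passed in gcp109, where 12.5% of all genes tested passed, so the count is near its background. The largest were the catalase gene ctl-3, which rose (log2 1.49, SE 0.244, adjusted p = 0.0146), and the globin gene glb-34, which fell (log2 -0.88, SE 0.155, adjusted p = 0.0182). In that fit tdo-2, the heme-dependent tryptophan dioxygenase gene, rose in gcp109 (log2 0.43, SE 0.073, adjusted p = 0.016) but fell in F1het (log2 -0.68, SE 0.0737, adjusted p = 0.032) and in F1KO (log2 -0.77, SE 0.0737, adjusted p = 0.0424). All genes passing with the block were 0.563% in F1het and 0.0582% in F1KO. Whether these responses differ between the experiments was not tested.

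Of 10475 genes with a mean of at least 5 TPM, the one whose pattern over the 48 libraries was most like that of hrg-1 was hrg-7 (Pearson r = 0.836 after removing the mean of each experiment, Spearman rho = 0.82, and r = 0.891 over the 14 group means). The second was mrp-5 (r = 0.756), followed by K09F6.10 (r = 0.675), Y40C5A.4 (r = 0.641) and R193.2 (r = 0.635). For hrg-3 the first 2 were hrg-7 (r = 0.754) and hrg-1 (r = 0.74), followed by F08B4.3 (r = 0.722), the ABC transporter gene pgp-6 (r = 0.645) and F56D6.9 (r = 0.645). Heme genes therefore filled the first places for both. Without the 5 libraries that stood apart, r was 0.847 between hrg-1 and hrg-7, 0.805 between hrg-1 and mrp-5 and 0.769 between hrg-1 and hrg-3.

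**Figure D5:**
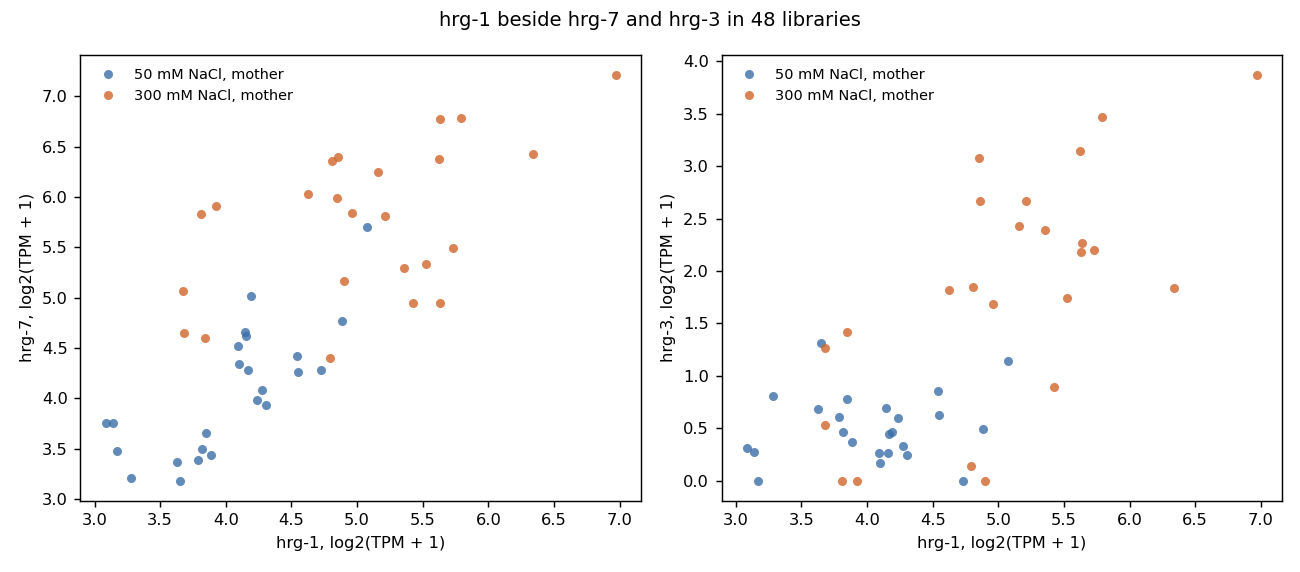
Level of hrg-1 against hrg-7 and against hrg-3, both axes in log2(TPM + 1), one point per library, 48 in all, coloured by maternal NaCl. Libraries of the 300 mM groups reach the upper right, and 3 of them lie at 0 for hrg-3; the correlations with the experiment means removed were 0.836 and 0.74.

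The remaining members were most like other genes. For mrp-5 these were eif-3.B, a subunit of a translation initiation factor (r = 0.87), chc-1, the clathrin heavy chain gene (r = 0.866), and vgln-1, which encodes the RNA-binding protein vigilin (r = 0.862), with hrg-1 at place 78. For hrg-2 they were grsp-2 (r = 0.799), pxd-1 (r = 0.793) and C33D9.9 (r = 0.791), and for hrg-6 they were K07E3.2 (r = 0.772), Y71H2B.4 (r = 0.715) and F01G12.14 (r = 0.664). The correlation of hrg-2 with hrg-1 was 0.293 and with mrp-5 0.046. These are descriptions across libraries that share strains and salt groups.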

How the data were processed

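The values are TPM as the authors deposited them in 1 table with 30470 lines, of which 3 hold reporters; no depth is kept, so its precision was judged from the spread between libraries. Per the submitters' processing notes, the builds ce11 and WBcel235 and bedtools were used; no source used here names the aligner, the counting program or its use of strand. Libraries were strand-specific and depleted of ribosomal RNA, per the labels' protocols. TPM summed to 953862 to 999109 per library. Values of 48 of 68 samples were used, 0 columns matched no sample, and the other 20 samples are not analysed here.

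In the experiment of N2 and gcp100, 20693 of 30467 values stood on lines other than those of their genes and were moved back. Correlation across genes with the other libraries went from r = 0.593 to 0.988. Among the members mrp-5 alone was displaced, by 2 lines. Symbols were found for 28048 IDs, and 11 names turned into dates took the symbol of their ID.

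Differences of log2(TPM + 1) came from limma (version 3.58.1, R 4.3.3) with a variance trend, 1 fit for each experiment (gcp109 against N2 over both experiments). A gene entered a fit if it reached 1 TPM in as many libraries as the smallest group holds. Two-sided p-values were adjusted by Benjamini-Hochberg over the 14102 to 16327 genes of the fit, with a threshold of 0.05. The tests were tried on simulated data. Exact permutation tests covered 15 comparisons per gene, with adjustment over these. Named genes were the members, genes overlapping them, the 3 or 5 genes most like each member that passed the filter in every experiment, and up to 4 genes per list that passed. The members and lists were chosen with earlier results of these data known.

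Replicate numbers were taken to pair libraries where the deviations of every pair of 3 or more correlated above 0.1. They did so between salt groups in F1het (lowest r = 0.106), F1KO (0.174) and gcp109 (0.493), and between gcp100 and N2 at 50 mM (0.261). Alternatives were a pseudocount of 0.1, no filter, rescaled libraries, 1 fit over all libraries, the replicate block, and fits without the libraries rich in sperm transcripts (over 5 times the median), with a median correlation below 0.9 with all others, or, added after seeing the data, below 0.9 within their group, and without each library in turn. For the members' levels, the lines as deposited were also read.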

Additional observations from a re-analysis of the deposited data

Results flagged for a closer look

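In 3 of 42 groups of 4 or 5 values examined, 1 library lay far from the others (the ratio of its gap to the range of the group passed the critical value for that size), where chance gives about 1 in 20. In gcp100 at 300 mM, replicate 1 held 54.3 TPM of hrg-1, and the other 4 libraries held 27.8 to 30.1 TPM. In N2 at 50 mM, replicate 3 held 1.21 TPM of hrg-3, and the others 0 to 0.2 TPM. In gcp100 at 300 mM, replicate 5 held 13.9 TPM of hrg-6, and the others 0 to 3.14 TPM. Replicates 1 and 5 of gcp100 at 300 mM were also among the 5 libraries that stood apart in their groups, with 1685 and 223 TPM of sperm transcripts.

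The salt response of hrg-6 ran in opposite directions between strains, with every F1het library lower at 300 mM (log2 -0.95) and every WT (log2 0.44) and n4117 (log2 1.53) library higher. The difference was not tested, and these strains belong to separate experiments.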

How the results depend on the processing

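Over the 19 comparisons of members and the 7 of other heme genes, under alternatives other than leaving out 1 library, 135 counts stayed within 1.5 times the reported count and 23 did not. Most reported counts were 0, and a count that stayed at 0 is among the 135, so this total does not measure how stable the calls are. The rise of hrg-3 in gcp109 passed under every alternative limma fit and without any one library (adjusted p up to 0.0478). The same held for hrg-7 in gcp109. By exact permutation neither passed after adjustment over 15 comparisons (adjusted p = 0.238 for hrg-3 and 0.119 for hrg-7). Omitting the libraries rich in sperm transcripts left 1 library in n4117 and in gcp100 at 300 mM, and gcp109 against N2 at 300 mM lost its call. The count of that comparison was also 0 without the libraries of low correlation with all others. It was 0 as well without those that stood apart in their group, an omission chosen after seeing the data. The fit over all libraries called 1 member in N2 (hrg-2, lower) and 2 in gcp100, and without low-correlation libraries 1 was called in gcp100. With the replicate block, 2 members were called in gcp109, and other heme genes numbered 1 in F1het, 1 in F1KO and 9 in gcp109; the block changed no other count by over 1.5 times. Where the numbers did not pair the libraries, hrg-7 in gcp100 did not pass with the block (adjusted p = 0.112). Other heme genes called in N2 were 20 in the fit over all libraries, 1 without sperm-rich, 1 without low-correlation and 5 without stand-apart libraries; in gcp100 they were 0 with a pseudocount of 0.1, 0 without the filter, 2 in the fit over all libraries, 0 without sperm-rich, 2 without low-correlation and 0 without stand-apart libraries.

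Leaving out 1 library at a time gave 0 to 1 called members for salt in F1het, F1KO and gcp100, and 1 to 2 in gcp109. For gcp109 against N2 at 300 mM it gave 0 to 1. In WT and n4117 each such fit leaves 1 library in a group. Other heme genes numbered 0 to 1 in F1KO and gcp100, 1 to 2 in gcp109 and 1 to 7 in N2.

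Signs that turned belonged to differences that had not passed. For hrg-1 in N2 the value was 0.44 without sperm-rich libraries and 0.14 without low-correlation or stand-apart libraries, and leaving out 1 library gave -0.38 to 0.10. For hrg-2 it was -0.015 in gcp109 and 0.92 in gcp100 without sperm-rich libraries; leaving out 1 gave -0.30 to 0.47 in WT, -0.076 to 1.37 in n4117 and -0.015 to 0.37 in gcp109. For hrg-4 in gcp100 it was -0.79 with a pseudocount of 0.1 and -0.021 after rescaling; leaving out 1 gave -0.36 to 0.20, with -0.15 to 0.57 in WT and -0.27 to 0.12 in F1het. For hrg-6 it was 0.18 in N2 without sperm-rich libraries, and leaving out 1 gave -0.27 to 0.38 in F1KO. The hrg-1 interaction of F1KO against F1het ranged from -0.026 to 0.48. The cause was not tested. Rescaling moved the median salt difference of all genes in n4117 from 0.163 to 0.024. Read on the lines as deposited, mrp-5 would have averaged 18.2 TPM in N2 at 50 mM instead of 32.6. The depth behind TPM is unknown, so the counting error of the low members cannot be given.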
